A study of Mus musculus with 48 samples.

Results

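The genes described here encode feedback inhibitors of ERK signalling: the dual-specificity phosphatases Dusp1, Dusp4, Dusp5 and Dusp6, the Sprouty proteins Spry1, Spry2 and Spry4, and the Sprouty-related proteins Spred1 and Spred2. They were chosen by name and matched to the gene identifiers of the count tables, and all 9 were found among the 46983 genes listed. Their RNA was followed in 48 bulk libraries of brain tissue from male C57Black/6 mice, 3 months old, after permanent occlusion of the middle cerebral artery (MCAO) by coagulation and transection under isoflurane. Sham mice had the same operation without coagulation of the artery, and control tissue was intact cortex. There were 4 control libraries, 4 sham libraries at each of 3 h, 12 h, 24 h, day 3 and day 7, and 5 MCAO libraries at each time but 24 h, which had 4. The lesion is a small one in parietal cortex. The labels give the tissue as the injured cortical region with brain tissue that was not affected, and the study's text elsewhere calls the bulk samples most of the hemisphere on the side of the lesion, so each value is an average over injured and uninjured cells. In such samples fewer cells of a type and less RNA per cell cannot be told apart. The labels do not say in so many words that each library was a separate animal, and the p-values measure the spread between these libraries.

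ERK, the last kinase of the Ras-Raf-MEK-ERK cascade, carries signals from growth factor receptors and, in neurons, from synaptic activity to the nucleus. There it leads to transcription of immediate early genes and of its own inhibitors. Dusp6 is a cytoplasmic phosphatase selective for ERK, Dusp5 is its nuclear counterpart, and Dusp1 and Dusp4 are nuclear enzymes that also act on JNK and p38. Sprouty and Spred proteins act upstream, between the receptor and Raf, and Spred proteins do so by bringing the Ras inhibitor neurofibromin to the membrane. In brain, as elsewhere, the RNA of several of them is read as a sign of recent ERK activity.

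None of the 9 genes passed the test for a change in any of 17 comparisons, by edgeR's quasi-likelihood test (adjusted p under 0.01 over 19970 genes and, where a fold change exists, over 0.58 on the log2 scale). DESeq2 called 0 of the same 153 tests too, and 18 of them had an unadjusted p under 0.05 by edgeR and 19 by DESeq2. The share of all genes called in MCAO against sham was 0.11% at 3 h, 0.411% at 12 h, 0.0901% at 24 h, 4.02% at day 3 and 3.5% at day 7. In MCAO against control the share was 0.13% at 3 h, 0.851% at 12 h, 0.275% at 24 h, 3.09% at day 3 and 1.5% at day 7. In sham against control it was 0% at 3 h, 0.0351% at 12 h, 0.01% at 24 h, 0% at day 3 and 0% at day 7. At every time 0 of 9 is near these shares, so that the count by itself is no result about the 9 genes. The lowest adjusted p of any of the genes was 0.0549, for Spry2 in MCAO against control at 12 h. Counting unadjusted p under 0.05, 5 of 45 tests of these genes in MCAO against sham were under it, next to 15.4% of the tests of all genes. The same count was 8 of 45 in MCAO against control, next to 14.2%, and 2 of 45 in sham against control, next to 5.03%.

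Each library held 1522668 to 2826735 counts on genes, with a median of 1935856. Spike-in RNA took 3.71% to 5.97% of the counts on genes and spike-ins together. Levels are given as CPM, counts scaled to 1 common library size by TMM, which sets the scale by the bulk of genes. A count here is a read from the 3′ end of a transcript. The genes differed widely in depth over the 48 libraries, from 183 counts for Spry1, 274 for Dusp4 and 487 for Spry4 to 17367 for Spred1. All 9 passed the filter of more than 10 counts in total. The summed level of 10 neuron markers was 6642 to 13776 CPM per library, as for brain tissue, and that of 9 striatum markers was 190 to 4587 CPM, above 0 in every group. Marker lists of the other cell types are given with the results further on.

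**Figure D1:**
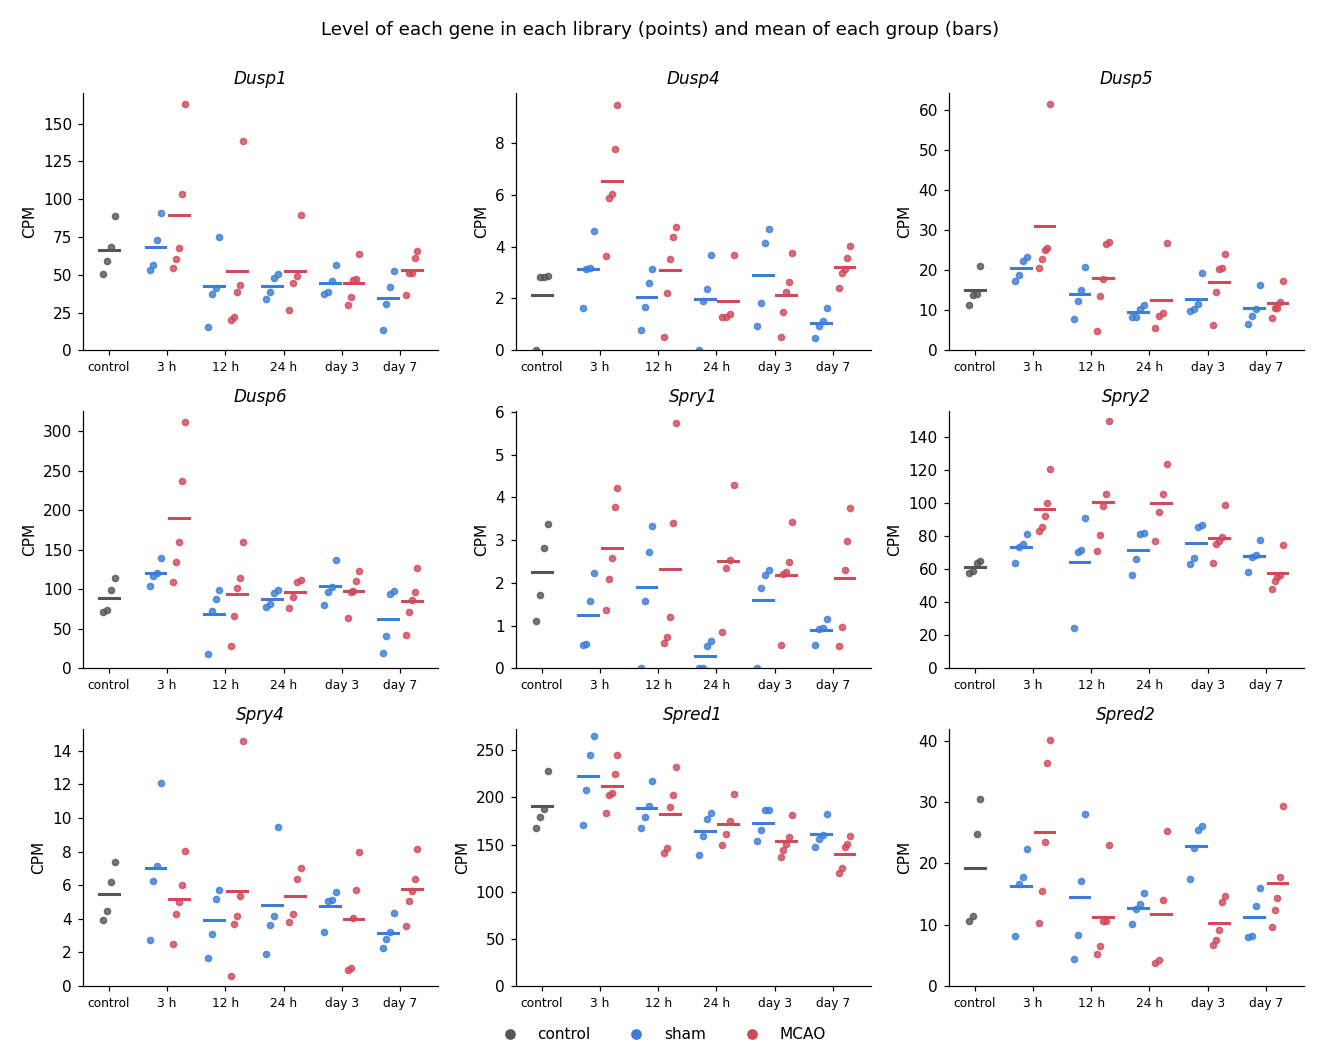
CPM of each of the 9 genes (vertical axes, each from 0) in each of the 48 libraries (points) by group, with the mean of each group as a bar, for control (grey), sham (blue) and MCAO (red) at 3 h, 12 h, 24 h, day 3 and day 7. MCAO and sham values overlap in all but 4 of the 45 pairs of groups, and the MCAO group at 3 h has the highest mean for Dusp1, Dusp4, Dusp5, Dusp6, Spry1 and Spred2.

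Dusp6, the ERK-selective phosphatase, lies on chromosome 10 (GRCm38 chr10:99263231-99267489, plus strand). In MCAO it averaged 190.0 ± 82.7 CPM at 3 h (SD, n = 5), 94.0 ± 49.998 at 12 h, 96.7 ± 16.6 at 24 h (n = 4), 98.1 ± 22.04 at day 3 and 84.8 ± 31.4 at day 7. In sham it averaged 120.1 ± 14.6 CPM at 3 h (n = 4), 69.0 ± 35.8 at 12 h, 88.0 ± 10.1 at 24 h, 104 ± 24.2 at day 3 and 62.7 ± 39.0 at day 7, and in control 89.3 ± 20.6. The 3 h MCAO libraries read 109, 134, 159, 237 and 311 CPM, and the 3 h sham libraries 104, 116, 121 and 139. Of the 5 MCAO libraries 2 lay within the sham range and 3 above it. The log2 fold change of MCAO against sham at 3 h was 0.66 (95% confidence interval -0.04 to 1.36, adjusted p = 0.627). Against control it was 1.09 (0.38 to 1.80, adjusted p = 0.208, unadjusted p = 0.00399), and the 3 h sham itself stood at 0.43 from control (-0.32 to 1.18). Other groups held libraries far below their group mean, with 17.9 CPM in sham 12 h replicate A, 18.7 in sham day 7 replicate D and 27.6 in MCAO 12 h replicate D.

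Dusp1, an immediate early gene whose product acts on all 3 of ERK, JNK and p38, lies on chromosome 17 (chr17:26505590-26562128, minus strand). Its annotated span overlaps Ergic1 on the other strand, and the strand setting of the counting is not given in the sources used here. The 3 h MCAO libraries read 54.3, 60.1, 68.0, 104 and 163 CPM and the 3 h sham libraries 52.9, 56.1, 73.1 and 90.5, so that the groups overlapped. Control averaged 66.7 ± 16.7 CPM (n = 4), near sham at 3 h, 68.2 ± 17.3. The later sham groups averaged 42.4 ± 24.5 at 12 h, 42.6 ± 7.64 at 24 h, 44.5 ± 8.75 at day 3 and 34.5 ± 16.9 at day 7, all with lower means than control. MCAO averaged 89.8 ± 45.1 at 3 h, 52.5 ± 49.3 at 12 h, 52.4 ± 26.4 at 24 h, 44.6 ± 13.1 at day 3 and 53.1 ± 11.1 at day 7. The MCAO-against-sham difference in the fit of all libraries was, on the log2 scale and over the 5 times, between 0.00 and 0.63, and every interval included 0 (lowest adjusted p 0.346). With libraries scaled to the spike-ins the day 3 difference of Dusp1 was -0.27. At 12 h the MCAO mean rested on replicate E, with 139 CPM where the other 4 read 20.02 to 43.3. Without that library the 12 h difference of Dusp1 turned to -0.48, and without MCAO 24 h replicate D the 24 h difference turned to -0.09.

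Dusp5, the nuclear ERK phosphatase, lies on chromosome 19 (chr19:53529109-53542431, plus strand). It averaged 31.1 ± 17.1 CPM in MCAO at 3 h, 18.0 ± 9.33 at 12 h, 12.6 ± 9.70 at 24 h, 17.1 ± 6.89 at day 3 and 11.8 ± 3.38 at day 7. Sham averaged 20.5 ± 2.83, 14.0 ± 5.47, 9.56 ± 1.49, 12.7 ± 4.39 and 10.5 ± 4.26 CPM in the same order, and control 15.1 ± 4.20. At 3 h the MCAO libraries read 20.5, 22.8, 25.2, 25.5 and 61.5 CPM, and the sham libraries 17.4, 18.8, 22.4 and 23.3. The highest of them, replicate A, stood apart from the other 4. Against control the 3 h difference was 1.03 on the log2 scale (0.27 to 1.78, adjusted p = 0.319), and 0.64 without that library. Against sham it was 0.58 (-0.15 to 1.31, adjusted p = 0.7).

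Dusp4, a nuclear phosphatase of the same family, lies on chromosome 8 (chr8:34807297-34819894, plus strand) and was sparse, with 0 to 20 counts per library. The 3 h MCAO libraries held 6, 14, 14, 17 and 20 counts (3.62, 5.87, 6.03, 7.74 and 9.45 CPM), and the 3 h sham libraries 3, 7, 8 and 8 (1.64, 3.14, 3.16 and 4.61 CPM). Of the MCAO libraries 4 lay above all sham libraries and 1 within them, for a log2 difference of 1.06 (-0.02 to 2.14, adjusted p = 0.594). Against control the 3 h difference was 1.61 (0.44 to 2.78, adjusted p = 0.268), with control libraries at 0, 5, 5 and 5 counts. Without the control library at 0 counts, replicate A, it was 1.199. The other MCAO groups averaged 3.08 ± 1.73 CPM at 12 h, 1.90 ± 1.18 at 24 h, 2.12 ± 1.22 at day 3 and 3.22 ± 0.618 at day 7. Sham groups averaged 2.04 ± 1.03, 1.98 ± 1.52, 2.89 ± 1.80 and 1.04 ± 0.489 CPM at those times. At day 7 the groups did not overlap, with MCAO at 2.40, 2.97, 3.13, 3.56 and 4.04 CPM and sham at 0.456, 0.933, 1.14 and 1.64 (log2 difference 1.60, 0.20 to 3.00, adjusted p = 0.12). These sham libraries held only 1 to 3 counts each.

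The promoters of Dusp1, Dusp5, Dusp6 and Spry1 are shown because these 4 genes had the highest correlation with ERK target genes between libraries of one group, as described further on. None passed an adjusted p under 0.01. For Dusp1 alone, at the smallest p the resamples can give, the number of resamples put that out of reach. They are the 250 bases before the RefSeq gene start (GRCm38.p6), from the reference table that holds 7 of the 9 genes (not Dusp4 or Spry4). Capitals mark matches, on either strand, to TGACGTCA (the cAMP response element), to its first part TGACG, or to the CArG box of the serum response element; a match to TGANTCA (the AP-1 site) would also be in capitals.
Dusp1: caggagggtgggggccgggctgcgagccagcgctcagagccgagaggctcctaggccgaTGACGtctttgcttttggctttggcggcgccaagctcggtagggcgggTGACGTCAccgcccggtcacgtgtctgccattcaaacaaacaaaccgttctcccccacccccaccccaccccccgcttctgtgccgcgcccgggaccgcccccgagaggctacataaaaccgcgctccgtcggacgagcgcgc
Dusp5: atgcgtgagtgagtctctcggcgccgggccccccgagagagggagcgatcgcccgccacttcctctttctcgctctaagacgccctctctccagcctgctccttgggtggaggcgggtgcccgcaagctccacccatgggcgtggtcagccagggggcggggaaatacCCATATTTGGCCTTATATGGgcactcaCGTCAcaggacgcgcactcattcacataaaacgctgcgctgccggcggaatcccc
Dusp6: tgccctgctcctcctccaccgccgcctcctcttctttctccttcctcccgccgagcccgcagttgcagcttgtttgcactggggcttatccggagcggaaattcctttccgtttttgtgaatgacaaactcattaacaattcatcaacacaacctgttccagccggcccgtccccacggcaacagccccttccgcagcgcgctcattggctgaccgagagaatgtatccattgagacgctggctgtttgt
Spry1: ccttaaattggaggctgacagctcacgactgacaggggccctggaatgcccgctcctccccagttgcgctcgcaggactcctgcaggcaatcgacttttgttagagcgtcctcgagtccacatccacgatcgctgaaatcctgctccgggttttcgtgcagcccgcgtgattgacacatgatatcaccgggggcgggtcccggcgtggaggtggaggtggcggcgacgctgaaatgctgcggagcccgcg

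The Dusp1 window (chr17:26508473-26508722, minus strand) held 1 full cAMP response element, 143 to 136 bases before the start, and 1 further TGACG, 191 to 187 bases before it. This window lies inside the annotated span of Dusp1 given above, so the RefSeq start used here is not the start of that span. The full element overlaps 2 matches to its first part, and was in 1.55% of 32851 promoters of that length and in 1 of these 7. The Dusp5 window (chr19:53528895-53529144, plus strand) held 2 adjacent CArG boxes, 82 to 63 bases before the start, a motif in 1.47% of all promoters and 1 of the 7, and a TGACG on the other strand at 55 to 51. TGACG was in 17.8% of all promoters and in Dusp1, Dusp5 and Spred2. The AP-1 site was in 6.75% of all promoters and 0 of the 7. The Dusp6 window (chr10:99262981-99263230, plus strand) and the Spry1 window (chr3:37639697-37639946, plus strand) held no match to any of them.

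Spry2, a Sprouty protein that restrains signalling from fibroblast growth factor receptors, lies on chromosome 14 (chr14:105891947-105896819, minus strand). It had the most counts of the Sprouty genes, 7553 over all libraries, and the narrowest spread of them. At 3 h the MCAO libraries read 83.4, 85.7, 92.1, 100.2 and 121 CPM and the sham libraries 63.9, 73.5, 75.1 and 81.2, and the groups did not overlap. The log2 difference was 0.39 (-0.03 to 0.81, adjusted p = 0.628). At 12 h the MCAO libraries read 70.9, 80.5, 98.2, 105 and 149.7 CPM and the sham libraries 24.4, 70.3, 72.0 and 91.1. That sham group held a library far below the rest, replicate C, and the groups overlapped. The 12 h difference was 0.65 (0.23 to 1.07, adjusted p = 0.109), and without that sham library it was 0.37.

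At 24 h Spry2 averaged 100.2 ± 19.7 CPM in MCAO (n = 4) and 71.6 ± 12.3 in sham, a log2 difference of 0.49 (0.04 to 0.93, adjusted p = 0.508). At day 3 it averaged 79.0 ± 12.6 and 75.6 ± 12.3 CPM, and at day 7 57.5 ± 10.1 and 68.1 ± 7.95. The difference was 0.06 at day 3 and -0.25 at day 7. Control libraries read 57.5, 59.0, 63.6 and 64.9 CPM. Against control the difference was 0.65 at 3 h (adjusted p = 0.195), 0.72 at 12 h (adjusted p = 0.0549) and 0.71 at 24 h (adjusted p = 0.137). It was 0.37 at day 3 (adjusted p = 0.339) and -0.09 at day 7 (adjusted p = 0.916). With libraries scaled to the spike-ins the 12 h difference of Spry2 from control was 0.45 (adjusted p = 0.307). The mean MCAO-minus-sham difference of 3 h and 12 h was 0.61 higher on the log2 scale than that of day 3 and day 7 (0.19 to 1.03, unadjusted p = 0.0052, adjusted p = 0.0852). Leaving out any 1 of the 36 libraries gave 0.47 (without sham 12 h replicate C) to 0.73 (without sham 12 h replicate D). The adjusted p of 0.0852 was the lowest of the 9 genes in that test, in which 1.12% of all genes were called. Counting unadjusted p under 0.05 in that test, Spry2 was 1 of 9, next to 17.9% of all genes.

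Spry1 lies on chromosome 3 (chr3:37639947-37644598, plus strand), overlapping the unclassified transcript Gm42922 on the other strand, and held 0 to 11 counts per library. At 24 h the MCAO libraries held 2, 5, 6 and 7 counts and the sham libraries 0, 0, 1 and 1, without overlap in CPM. Summed over the groups these are 20 and 2 counts, a ratio per depth of 8.16 with an exact 95% interval of 1.98 to 72.0 that covers counting error only. The fitted log2 difference was 2.82 (0.47 to 5.17, adjusted p = 0.256). In MCAO the gene averaged 2.81 ± 1.18 CPM at 3 h, 2.33 ± 2.21 at 12 h, 2.502 ± 1.41 at 24 h, 2.18 ± 1.04 at day 3 and 2.101 ± 1.36 at day 7, close to the 2.25 ± 1.03 of control. Sham averaged 1.24 ± 0.825, 1.90 ± 1.46, 0.289 ± 0.337, 1.59 ± 1.07 and 0.884 ± 0.249 CPM in the same order. The 24 h sham group had the lowest mean of all 11 groups, and its difference from control was -2.71 (-5.08 to -0.34, adjusted p = 0.926).

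Spry4 lies on chromosome 18 (chr18:38586247-38601415, minus strand) and held 1 to 28 counts per library. MCAO averaged 5.18 ± 2.04 CPM at 3 h, 5.68 ± 5.29 at 12 h, 5.37 ± 1.55 at 24 h, 3.96 ± 3.03 at day 3 and 5.76 ± 1.69 at day 7. Sham averaged 7.05 ± 3.86, 3.92 ± 1.88, 4.81 ± 3.26, 4.77 ± 1.05 and 3.16 ± 0.882 CPM in the same order, and control 5.50 ± 1.60. The groups overlapped at every time. The difference of MCAO against sham lay between -0.45 at 3 h and 0.86 at day 7 on the log2 scale. The intervals reached down to -1.44 at 3 h and up to 1.96 at day 7. Each of the intervals reached past a 2-fold change, and none did so in both directions.

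Spred1, which with neurofibromin switches Ras off, lies on chromosome 2 (chr2:117121374-117182279, plus strand). It was the most precisely measured of the 9 genes, with a spread within groups of 0.20 on the log2 scale where the others had 0.33 to 0.70. MCAO averaged 212 ± 23.4 CPM at 3 h, 182 ± 38.5 at 12 h, 172 ± 23.3 at 24 h, 154 ± 16.9 at day 3 and 140.5 ± 17.3 at day 7. Sham averaged 222 ± 41.7, 189 ± 21.4, 165 ± 20.003, 173 ± 16.2 and 161 ± 15.1 CPM in the same order, and control 191 ± 26.2. The group means of day 3 and day 7 were under those of 3 h in sham and in MCAO alike. All 5 differences of MCAO against sham were between -0.20 and 0.06 on the log2 scale, and their intervals, from -0.48 to 0.36, all lay inside a 2-fold change. Against control the day 7 MCAO group stood at -0.44 (-0.73 to -0.16, unadjusted p = 0.00287, adjusted p = 0.0678) and the day 7 sham group at -0.24 (-0.54 to 0.05). At day 3 the MCAO group stood at -0.31 (-0.59 to -0.03, adjusted p = 0.198). With libraries scaled to the spike-ins this day 3 difference of Spred1 was -0.63 (adjusted p = 0.0263), next to a median of -0.28 for all genes.

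Spred2 lies on chromosome 11 (chr11:19924375-20024026, plus strand). At day 3 the MCAO libraries read 6.78, 7.49, 9.07, 13.7 and 14.6 CPM and the sham libraries 17.4, 22.5, 25.4 and 26.2. Every MCAO library was below every sham library, by -1.13 on the log2 scale (-2.03 to -0.24, unadjusted p = 0.0135, adjusted p = 0.108), and leaving out any 1 of the 9 libraries gave -1.29 to -1.01. The sham mean of day 3, 22.9 ± 3.96 CPM, was the highest of the sham groups, which averaged 16.3 ± 5.93 at 3 h, 14.5 ± 10.5 at 12 h, 12.8 ± 2.12 at 24 h and 11.3 ± 3.93 at day 7. MCAO averaged 25.2 ± 12.9 CPM at 3 h, 11.2 ± 7.01 at 12 h, 11.8 ± 10.1 at 24 h, 10.3 ± 3.61 at day 3 and 16.7 ± 7.67 at day 7. Control averaged 19.3 ± 9.87, and the day 3 MCAO difference from it was -0.89 (-1.82 to 0.03, adjusted p = 0.266).

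**Figure D2:**
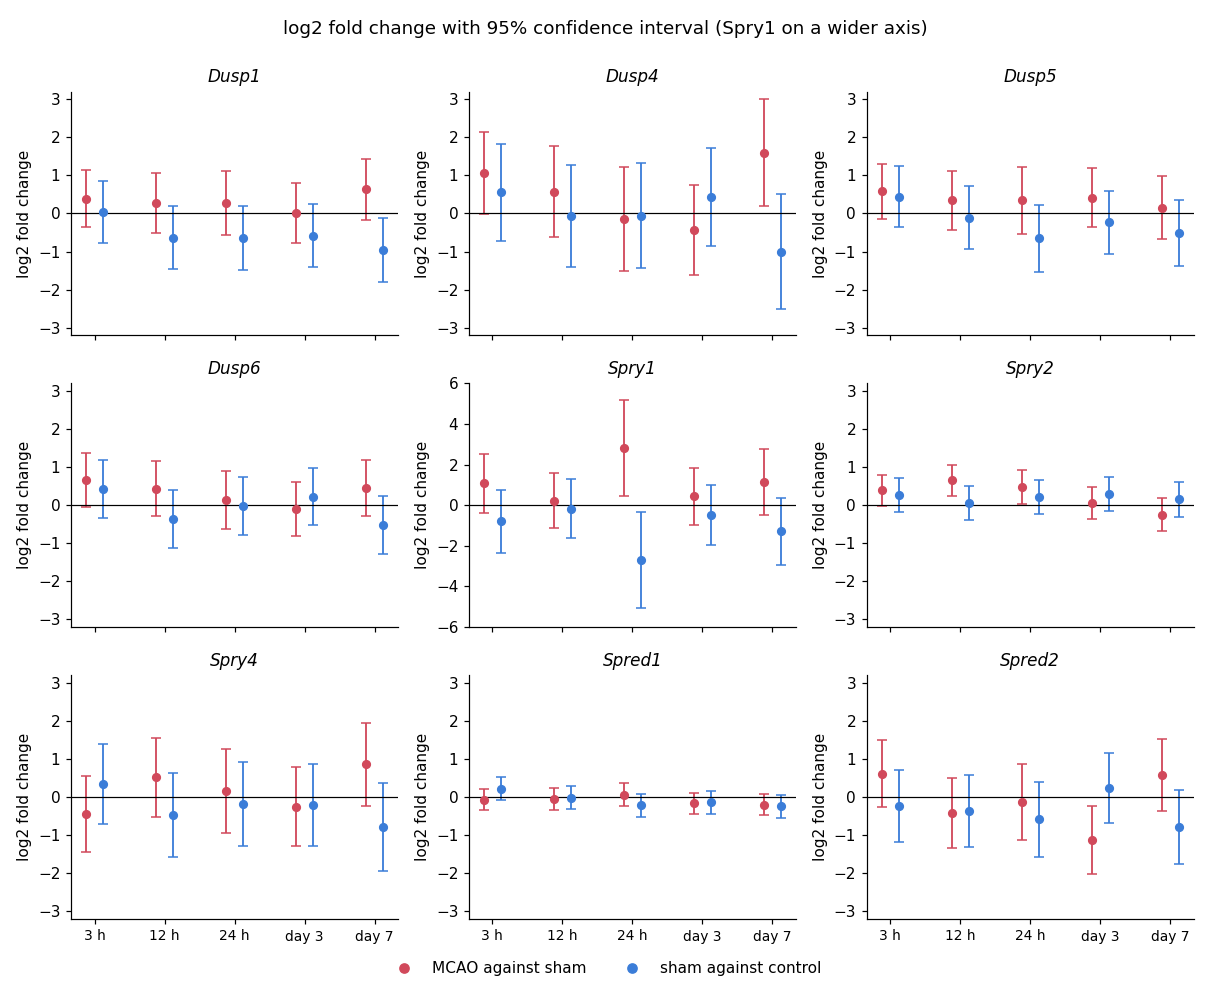
The log2 fold change with its 95% confidence interval (vertical axes) of MCAO against sham (red) and of sham against control (blue) for each of the 9 genes at 3 h, 12 h, 24 h, day 3 and day 7, from 1 edgeR fit of all groups. The Spred1 intervals are the narrowest and those of Spry1 the widest, and of the 45 red intervals 5 leave out 0: Spry2 at 12 h and 24 h, Spry1 at 24 h, Spred2 at day 3 and Dusp4 at day 7.

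The 45 differences of MCAO against sham were positive in 32 and negative in 13, and with libraries scaled to the spike-ins positive in 30. At 3 h, 7 of 9 genes had a higher fitted level in MCAO, with a median of 0.58 on the log2 scale next to 0.00 for all genes. The median over the 9 genes was 0.34 at 12 h, 0.16 at 24 h, -0.09 at day 3 and 0.58 at day 7, next to 0.01, 0.02, 0.01 and 0.06 for all genes. These are descriptions of correlated values, and 0 of them passed the test. In 13 of the 45 pairs the interval lay inside a 2-fold change: 5 of Spred1, 4 of Spry2, 2 of Dusp6 and 1 each of Dusp1 and Dusp5. In the other 32 the interval reached past a 2-fold change in at least 1 direction, and 4 of these left out 0 (Spry2 at 12 h, Spry1 at 24 h, Spred2 at day 3 and Dusp4 at day 7). The groups did not overlap in 4 of 45 pairs, Spry2 at 3 h, Spry1 at 24 h, Spred2 at day 3 and Dusp4 at day 7, next to 6.07% of the same pairs of all genes. Ordered by mean over the 11 groups, the 10 pairs of neighbouring groups overlapped for every gene. The ratio of the highest to the lowest group mean was 1.58 for Spred1, 1.76 for Spry2 and 3.03 for Dusp6.

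The sham operation alone went with no call among these genes. At 3 h, 7 of the 9 sham means were fitted above control and at day 7 only 1 (Spry2; 0 with spike-in scaling), with a median of -0.78 on the log2 scale next to -0.01 for all genes. Spry1 (-1.29) and Dusp4 (-1.01) had the lowest differences, on few counts, and Dusp1 the lowest p. Dusp1 read 13.2, 30.3, 42.0 and 52.6 CPM in sham against 50.2, 59.0, 68.3 and 89.1 in control, a log2 difference of -0.96 (-1.80 to -0.12, unadjusted p = 0.0259, adjusted p = 0.586). Without sham day 7 replicate D it was -0.66. The same sham group is the reference of the day 7 MCAO comparison, where 7 of the 9 differences were positive, and against control 2 of 9 were. The test for any change of the MCAO-minus-sham difference over the 5 times called 0 of the 9 genes and 0.491% of all genes, with adjusted p of 0.238 for Spry2 and 0.26 for Spred2. These were the 2 of 9 with an unadjusted p under 0.05 there, next to 17.8% of all genes.

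Genes around the pathway were called at several times, in lists compiled from general knowledge. The share of all genes called against sham was 0.11% at 3 h, 0.411% at 12 h, 0.0901% at 24 h, 4.02% at day 3 and 3.5% at day 7. The receptors Csf1r, Pdgfra and Pdgfrb, named below, are also counted in the marker lists of microglia, oligodendrocyte precursors and fibroblasts, in that order. Of 24 transcriptional targets of ERK signalling, 2 were called higher in MCAO than in sham at 3 h, 1 at 12 h, 0 at 24 h, 2 at day 3, and 1 was called lower at day 7. The list median was 1.06 at 3 h on the log2 scale next to 0.00 for all genes. Maff, a small bZIP factor, stood at 3.75 (SE 0.83, adjusted p = 0.00965) and Fosb, an AP-1 subunit, at 2.81 (SE 0.51, adjusted p = 0.00648). Ier3, an immediate early gene, stood at 1.87 at 12 h (adjusted p = 0.00788). The call of Maff was lost without any 1 of its 9 libraries (3.33 to 4.19). That of Fosb was lost without MCAO 3 h replicate A or B or any 1 of the 4 sham libraries (2.29 to 2.95). That of Ier3 was lost without MCAO 12 h replicate C, D or E or any 1 sham library (1.66 to 2.12). The calls of Maff and Ier3 were also lost with libraries scaled to the spike-ins, and that of Ier3 with the replicate letter as a block and with only the groups compared in the fit.

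Of 24 genes of the Ras-Raf-MEK-ERK cascade, 0 were called at 3 h, 12 h and 24 h, 2 higher at day 3 and 2 higher at day 7. They included the adaptor Shc1 (1.59) and the ERK-activated kinase Rps6ka1 (1.62) at day 3, and the Raf kinase Araf (1.70) at day 7. Shc1 lost the call without MCAO day 3 replicate C or E or sham replicate B, C or D (1.30 to 1.73), Rps6ka1 without sham day 3 replicate A or B (1.48 to 1.51), and Araf without MCAO day 7 replicate A, C or D or sham replicate B or D (1.52 to 1.65). All 3 lost it with only the groups compared, and Shc1 also with spike-in scaling and with the block. Of 16 receptor tyrosine kinases, 1 was called higher and 1 lower at day 3 and 2 higher at day 7, and 0 at the earlier times. Csf1r, the receptor of microglia and macrophages, stood at 2.26 at day 3, with the call kept without any 1 library and under the other alternatives. Pdgfrb and Pdgfra, receptors of pericytes and fibroblasts and of oligodendrocyte precursors, stood at 1.70 and 1.36 at day 7. Pdgfrb lost the call without MCAO replicate C or sham replicate D (1.21 to 1.40), and Pdgfra without MCAO replicate C or D or sham replicate B or D (0.99 to 1.34). Both lost it with only the groups compared, and Pdgfra with spike-in scaling.

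Of 19 growth factors tested, 1 was called higher at day 3 and 2 at day 7. Hbegf, a ligand of the EGF receptor, stood at 1.35 at day 3, and 1.22 without sham replicate B, when it was no longer called, as with spike-in scaling and with only the groups compared. Igf1 stood at 3.04 and Csf1, the ligand of Csf1r, at 2.40 at day 7. Igf1 kept the call without any 1 library but lost it with only the groups compared, and Csf1 lost it without MCAO replicate C or sham replicate B or D (1.93 to 2.38). Of 9 other phosphatases and relatives of the same families that could be tested, Dusp3, a phosphatase of ERK and JNK, was the 1 called against sham, at -0.74 at day 7. It lost the call without MCAO replicate A, B, C or D or sham replicate A or D (-0.74 to -0.63), with spike-in scaling and with only the groups compared.

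Markers of other cell types were called at 12 h, 24 h, day 3 and day 7. At 12 h, the time of the lowest adjusted p of Spry2, granulocyte markers had 2 of 9 called higher (sum 12.2 to 1717 CPM in MCAO next to 2.79 to 3.32 in sham), peripheral myeloid and astrocyte markers 1 of 10 each (26.3 to 195 next to 22.9 to 32.9, and 4643 to 5506 next to 4967 to 6373). Microglia and endothelial markers had 1 of 10 each called lower (312 to 677 next to 366 to 555, and 267 to 382 next to 291 to 412). Striatum markers had 0 of 9 called at 12 h, with a median of -1.60 on the log2 scale (404 to 1589 next to 739 to 2525). At 24 h 1 of 10 astrocyte markers was called higher (4644 to 5378 next to 5179 to 5784) and 0 of the other lists, next to 0.0901% of all genes. The 24 h MCAO sums lay above sham for microglia (654 to 860 next to 395 to 519) and fibroblast markers (157 to 279 next to 92.7 to 139). They did so too for granulocyte (31.4 to 61.15 next to 4.72 to 7.58) and peripheral myeloid markers (30.5 to 64.2 next to 20.7 to 29.9). Sums of the other lists overlapped at 24 h. At day 3, 8 of 10 microglia markers were called higher in MCAO, and their summed level was 767 to 3134 CPM next to 342 to 436 in sham. In fibroblast markers 4 of 10 were called higher (sum 176 to 1723 CPM next to 105 to 181, with Dpt at 0 in all day 3 MCAO libraries), and in neuron markers 1 of 10 was called lower (8332 to 12150 CPM next to 11901 to 13600). Peripheral myeloid markers had 5 of 10 called higher (31.0 to 269.6 CPM next to 17.3 to 28.3), granulocyte markers 2 of 9 (7.47 to 636 next to 0 to 3.63), endothelial markers 3 of 10 (317 to 807 next to 335 to 367), and astrocyte and oligodendrocyte precursor markers 2 of 10 each (4702 to 5667 next to 5062 to 5513, and 223 to 525 next to 239 to 287). At day 7, microglia markers had 5 of 10 called higher (1054 to 4354 CPM next to 478 to 604), fibroblast markers 7 of 10 (202 to 6121 next to 71.2 to 129), oligodendrocyte precursor markers 4 of 10 (341 to 383 next to 162 to 244), astrocyte markers 3 of 10 (3876 to 6090 next to 4639 to 5618), peripheral myeloid markers 2 of 10 (37.0 to 162 next to 20.1 to 24.5) and oligodendrocyte markers 1 of 10 (1876 to 5157 next to 1757 to 2493), and neuron markers 2 of 10 called lower (6642 to 10579 next to 11649 to 13744). At 3 h, when the phosphatase means were highest, 0 of the marker genes were called against sham, next to 0.11% of all genes. Granulocyte sums were 10.25 to 63.3 CPM in MCAO next to 3.27 to 9.41 in sham at 3 h. Astrocyte sums were 4469 to 4794 next to 5048 to 5342, and the sums of the other lists overlapped. The part of cell composition in the values of these 9 genes was not tested.

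Between libraries of the same group, each gene was set against the ERK targets. At adjusted p under 0.01 none of the 9 members and 0 of 19946 genes passed. That count cannot decide the question for genes at the smallest p that 100000 resamples can give, which came to an adjusted p of 0.0133 here. Of the members this was Dusp1 alone. The other members had larger p, with adjusted p of 0.0219 to 0.897, and did not pass. Each library's log2(CPM + 1) was taken as its deviation from the mean of its group, averaged over the 24 target genes, and compared with every other gene over the 48 libraries. This relation was looked at after the values had been seen. The 4 members with the highest r are given first. Dusp1 had a Pearson r of 0.72 (Spearman rho 0.73), which ranked 5 among 19946 genes. Dusp5 had 0.68 (rho 0.55, rank 16), Spry1 0.62 (rho 0.60, rank 65) and Dusp6 0.54 (rho 0.62, rank 236), while the median of all genes was 0.02. By two-sided permutation of libraries within groups, with 100000 resamples, p was 1e-05 for r and rho of Dusp1, the smallest such resampling can give, 0.00011 and 0.0005 for Dusp5, 0.00011 and 0.00025 for Spry1, and 0.00025 and 7e-05 for Dusp6. Adjusted over all 19946 genes the p of r was 0.0133, 0.0219, 0.0219 and 0.0292 in that order. Without the 2 libraries farthest from the median of the target mean, r was 0.67, 0.58, 0.58 and 0.59.

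The other 5 genes had lower values. Spred2 had an r of 0.47 (rho 0.45, permutation p 0.00818 and 0.0109, adjusted p of r 0.131), Spry4 0.31 (rho 0.31, p 0.0966 and 0.0673, adjusted 0.393), Spred1 0.31 (rho 0.26, p 0.0781 and 0.124, adjusted 0.357), Dusp4 0.19 (rho 0.31, p 0.226 and 0.0445, adjusted 0.575) and Spry2 0.07 (rho 0.15, p 0.707 and 0.367, adjusted 0.897). Without the same 2 libraries r was 0.42, 0.36, 0.29, 0.13 and 0.01. Dusp1 and Dusp6 went together with an r of 0.74 (rho 0.69, permutation p 1e-05 for each), rank 3 among 19969 genes set against Dusp1 (adjusted p of r 0.0166, and r = 0.68 without 2 libraries). The library of sham 12 h with the lowest Dusp1, replicate A (15.6 CPM), also had the lowest Dusp6 (17.9), and so did sham day 7 replicate D (13.2 and 18.7). MCAO 12 h replicate E had the highest of its group for each (139 and 160.2).

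Properties of the libraries moved with the target mean too. Its r with the summed neuron markers (log2, within groups) was -0.58 (rho -0.55, permutation p 0.00064 and 0.00038, and r = -0.47 without 2 libraries), and with the number of gene counts -0.38 (rho -0.34, p 0.03 and 0.0396, and -0.20 without 2). For Dusp1 the same values were -0.35 (rho -0.41, p 0.0132 and 0.00762, -0.39 without 2) and -0.28 (rho -0.17, p 0.166 and 0.324, -0.13 without 2). For Dusp6 they were -0.29 (rho -0.12, p 0.0423 and 0.43, -0.20 without 2) and 0.01 (rho -0.05, p 0.942 and 0.766, 0.04 without 2). The share of spike-in counts had an r of 0.15 with the target mean, -0.13 with Dusp1 and -0.38 with Dusp6 (permutation p 0.408, 0.499 and 0.0591). In the same order r was 0.11, -0.20 and -0.27 for the share of alignments not unique. It was 0.28, -0.07 and 0.00 for summed microglia markers (lowest permutation p of these 0.152). These p are unadjusted, from 15 relations computed, and the part of these properties in the relation to the targets was not tested.

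**Figure D3:**
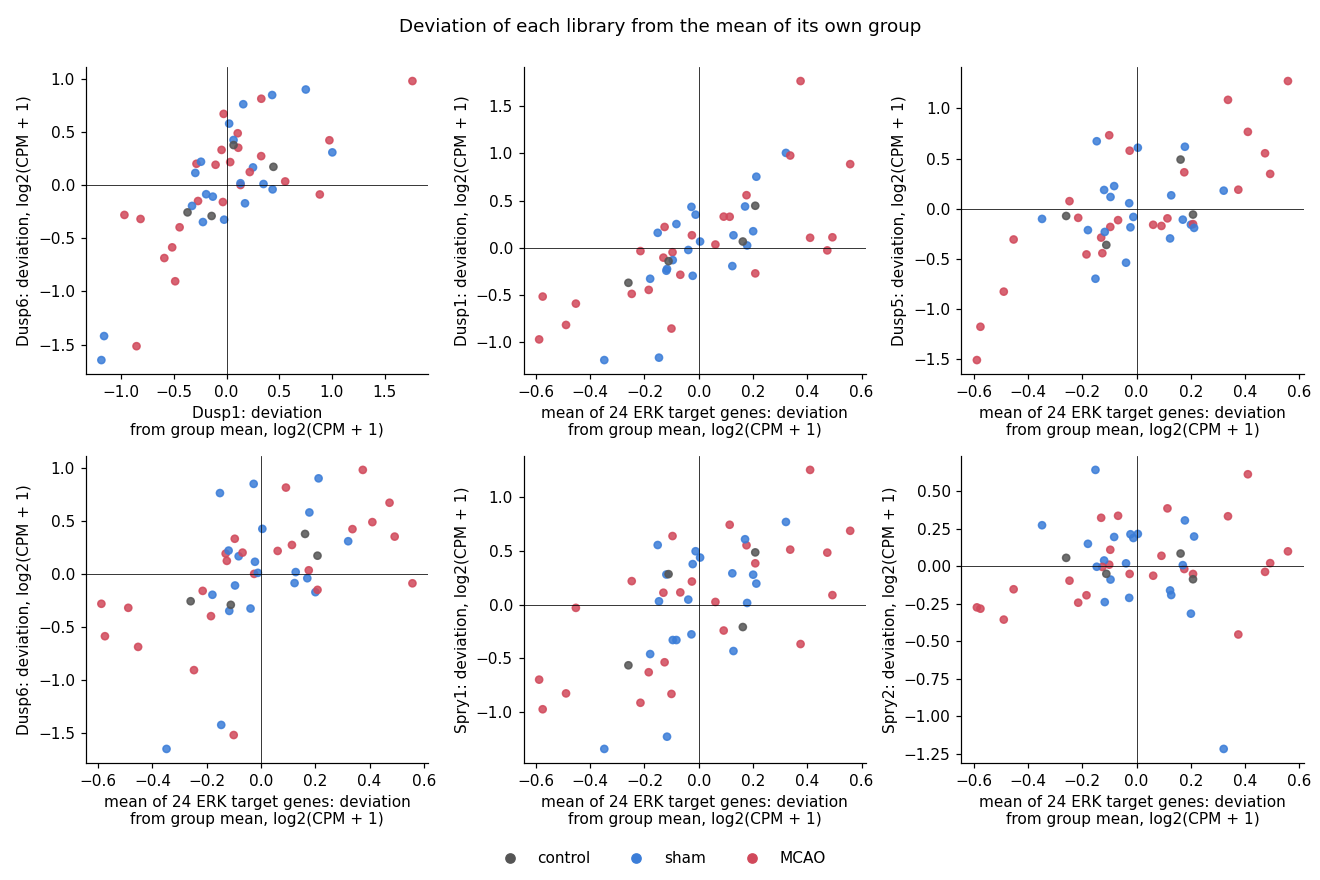
Deviation of each of the 48 libraries from the mean of its own group, in log2(CPM + 1), for Dusp6 against Dusp1 and for Dusp1, Dusp5, Dusp6, Spry1 and Spry2 against the mean of 24 ERK target genes, with control in grey, sham in blue and MCAO in red. Points of Dusp6 against Dusp1 rise together (r = 0.74), and Spry2 shows little relation to the target mean (r = 0.07).

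Over the means of the 11 groups, the genes whose pattern was most like a member's were found for the 7 members with at least 5 CPM on average, as a description of 11 points without a test. The pattern of Dusp6 was most like those of Tet3 (Pearson r of 0.96), Sema4a (0.94) and Rnf34 (0.94), and that of Dusp1 like Usp37 (0.93), P4ha2 (0.91) and Rlim (0.91). Dusp5 was most like Fgfr1op (0.94), Ski (0.90) and Pqlc1 (0.90). Spry2 was most like Arl1 (0.96), Dusp26 (0.94) and Nop58 (0.94), and Spry4 like Bmt2 (0.94), Ep400 (0.92) and Gskip (0.92). Spred1 was most like Mfsd2a (0.92), Aak1 (0.91) and Htt (0.90), and Spred2 like 1810055G02Rik (0.94), Fndc4 (0.92) and Brinp2 (0.91). Among the members themselves Dusp1 and Dusp6 had an r of 0.85 over the 11 groups, and Dusp4 and Dusp5 0.80.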

How the data were processed

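RNA of 48 libraries was sequenced from the 3′ end (QuantSeq, polyA-primed). Per the study's methods, the authors trimmed the reads, removed mitochondrial and ribosomal reads, aligned the rest with STAR 2.5.2b (version per the submitters' processing notes) to GRCm38 with the spike-in sequences, and ran htseq-count (union mode) over a Gencode annotation. The deposited values used are raw counts per gene, 1 table per library, and a further normalized matrix was not used. Spike-ins and reads without a gene stayed out of library sizes: 21.1% to 30.6% of listed alignments had no feature, 0.343% to 0.475% were ambiguous and 24.0% to 37.3% were not unique. Symbols matched 46488 of 46983 genes through the Gencode vM21 annotation of the same build. No 2 libraries were identical.

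The 19970 genes whose counts summed to more than 10 were fitted in R 4.3.3 with edgeR 4.0.16 (TMM, glmQLFit, glmQLFTest; biological coefficient of variation 24.9%) in 1 model of 11 groups. Calls needed a Benjamini-Hochberg adjusted p under 0.01 over all genes and a log2 fold change beyond 0.58 in either direction, the study's own cut-offs. Intervals are 95%. The early-late test set the mean difference of 3 h and 12 h against that of day 3 and day 7. Relations used Python 3.11.15, numpy 2.4.6, scipy 1.17.1 and pandas 2.3.3, and figures matplotlib 3.10.9. The scripts were tested on simulated data. Alternatives were DESeq2 1.42.0 (also its size factors alone), spike-in library sizes, other filters, only the groups compared, a block for the replicate letter, and leaving out single libraries.

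The members and gene lists were chosen with earlier results of these data known. All members are named. Of each pathway list the 3 genes with the largest difference among those called against sham are named, and for each member averaging at least 5 CPM the 3 genes most like it over group means.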

Additional observations from a re-analysis of the deposited data

Results flagged for a closer look

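In 99 sets of values (9 genes in 11 groups of 4 or 5 libraries), 4 libraries stood so far from the nearest other library of their group, relative to the group's range, that they exceeded Dixon's 95% limit. Chance alone gives about 1 in 20 such sets. Dusp1 read 139 CPM in MCAO 12 h replicate E, where the next library read 43.3. Dusp5 read 61.5 CPM in MCAO 3 h replicate A, where the next read 25.5. Dusp4 read 3.67 CPM in MCAO 24 h replicate D, where the next read 1.40, and 0 in control replicate A, where the next read 2.81; these are differences of a few counts.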

How the results depend on the processing

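In every one of the 17 comparisons, 0 of the 9 genes were called under each alternative run: DESeq2 (lowest adjusted p 0.0184), its size factors in edgeR (0.0508), spike-in library sizes (0.0263), filterByExpr (0.0418), no filter on low counts (0.0319), and only the groups compared (0.0173, the lowest of all, Spry2 in MCAO against control at 3 h). With the replicate letter as a block it was also 0 (lowest adjusted p 0.0695). Letters did not pair the libraries: same-letter MCAO and sham libraries correlated above 0.1 in 5 of 20 pairs (median 0.04), and with the block the calls of all genes at 12 h went from 82 to 53. Leaving out each library in turn, with the dispersion trend of the whole fit kept, gave 0 to 0 called members in each comparison (lowest adjusted p 0.0352). Spry1 did not pass filterByExpr and has no value there.

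Over 992 fold changes under the alternatives to the whole fit 23 changed sign, 13 of them with spike-in scaling, and 114 of 1476 did with 1 library left out. None of the 276 values of gene and comparison pairs with an unadjusted p under 0.05 did. That says little, because these pairs were picked for a low p in the main fit of the same libraries. Spike-in scaling moved the median of all genes to -0.22 at day 3 and 0.14 at day 7 in MCAO against sham. Of 208 alternative values of the 13 named pathway genes 67 lost the call and 0 changed sign. These genes too were picked by their calls in the main fit.

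Calls of all genes in MCAO against sham depended on the setting: at 3 h 22 by edgeR and 58 by DESeq2 or without a filter, 44 with only the groups compared and 14 with spike-ins; at 12 h 82, 179, 171, 13 and 58; at 24 h 18, 44, 55, 51 and 39; at day 3 802, 1027, 931, 339 and 594; at day 7 698, 1088, 998, 302 and 489. Depth limits Dusp4, Spry1 and Spry4 most, with at most 20, 11 and 28 counts in a library.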
